A study of Mus musculus with 6 samples.

Results

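The 164 brightest circular RNA (circRNA) probes of the mouse heart were followed across control hearts and hearts of mice exposed to chronic intermittent hypoxia (CIH), a model of obstructive sleep apnea. They were chosen from measured values. Of 14236 circRNA probes on the array, 3096 were well above background in both channels on all 6 arrays with no outlier mark, and the 200 with the highest mean total signal were taken. From these, 36 were left out because their log2 ratio of precipitated to unbound RNA was below -1 on control 2, control 3 and all 3 CIH arrays, which left 164. Probe brightness depends on the amount of RNA and also on how strongly a probe binds and was labelled, so an order of brightness between probes is not an order of abundance.

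All samples were hearts of BALB/c mice, in a control group and a CIH group of 3 arrays each. CIH mice breathed 6% O2 for 60 s and then 21% O2 for 60 s, a cycle of 2 min that ran 30 times per h on 8 h of each day over 8 weeks. No age, sex or allele is given in the labels, and the labels do not say that the replicates of a group were separate animals, so p-values reflect only how far these samples spread, and that spread may be technical. RNA was split with an antibody against N6-methyladenosine (m6A) into precipitated RNA (IP, labelled with Cy5) and RNA left in the supernatant (labelled with Cy3), both digested with RNase R, an enzyme that degrades linear RNA, with no dye swap. A kit for blood RNA and a globin removal step are named in the extraction protocol, which does not match the labelled tissue, heart.

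CircRNAs are closed loops that form when the spliceosome joins a downstream exon end to an upstream exon start. They have no free ends, resist exonucleases and can accumulate in tissue with little cell division such as the heart, where genes of the sarcomere and of calcium handling are known circRNA hosts. m6A is a methyl mark on adenosine that a methyltransferase complex writes, demethylases can remove and YTH-domain proteins bind. An antibody against it brings down a larger part of an RNA that carries the mark. The probes carry vendor identifiers, and 0 of them could be matched to a gene symbol, so they are named here by identifier, without host gene, position or sequence.

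The tissue label could be checked against 1 of 12 cardiomyocyte markers, since the array carries an mRNA probe for that one alone and for 0 markers of the other cell types listed. That probe, for Hspb7, a small heat shock protein of heart muscle, was above background in both channels on all 6 arrays. Its log2 total signal above the array's 75th percentile was 1.76 on control 1 and 3.28 to 4.18 on the other 5 arrays. For the 164 circRNA probes the spot signal was far above the local background on every array: the median ratio of signal to background was 132 to 274 in the IP channel and 91.8 to 213 in the supernatant channel. Over all circRNA probes these medians were 1.69 to 2.47 and 2.18 to 3.36. No circRNA spot was saturated, so none of the values below is a bound. With 3 arrays a group their precision is limited, and what else limits it was not tested.

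Control 1 stood apart from the other 5 arrays. Across the 164 probes the IP over supernatant ratio of control 1 had a Spearman rho of 0.15 to 0.46 with the ratios of the other arrays, whereas the other pairs of arrays had 0.69 to 0.96. The supernatant signal of control 1 correlated with the mean IP signal of the other arrays at r = 0.94 and with their mean supernatant signal at r = 0.85. For each of the other arrays the supernatant signal correlated more closely with the other arrays' supernatant (r = 0.94 to 0.99) than with their IP (r = 0.85 to 0.88). In the IP signal it was control 3 that stood apart. Its IP correlated with the mean IP of the other arrays at r = 0.91, against 0.96 to 0.99 for each of the others. Control 3 also had the lowest median signal over background in both channels. These are correlations across probes, which are not independent replicates. The slides also differed: all 3 control arrays and CIH 1 were on one slide, and CIH 2 and CIH 3 on another. Results that rest on control 1 are therefore given with and without it, and those called are given within the first slide as well.

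The 164 probes together held between 40.8% (CIH 2) and 48.0% (control 1) of the summed signal of all circRNA probes on an array, although they are a small part of the probes. The share was 44.8% on control 2, 43.0% on control 3, 43.8% on CIH 1 and 43.2% on CIH 3. CIH 2 alone lay below every control array, and the ranges of the groups overlapped. The 36 bright probes left out for their low ratio held 9.12% of the signal on control 1 and 15.1% to 20.0% on the other arrays.

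Signal was unevenly spread within the set. The level used throughout is the log2 of the summed signal of both channels above the array's 75th percentile over all circRNA probes. The mean level over 6 arrays ran from 6.15 to 11.60 with a median of 7.04. It was above 8 for 36 probes, between 7 and 8 for 51, and between 6 and 7 for 77. The brightest, ASCRP4006710, had levels of 11.61, 11.22 and 12.22 on control 1 to 3 and 11.51, 11.46 and 11.54 on CIH 1 to 3. Control 3 was the highest array for it and control 2 the lowest, and the CIH arrays lay between them. The next brightest, ASCRP4004672, had 10.52, 10.49 and 10.90 in the controls against 10.73, 10.55 and 10.64 with CIH. The CIH values again lay within the control range.

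Among the following 4 in order of brightness, ASCRP4004366 had levels of 9.12, 9.93 and 9.11 on control 1 to 3 and 10.13, 10.18 and 10.13 on CIH 1 to 3. Every CIH array was above every control array for this probe, which is taken up again below. ASCRP4005042 had a mean level of 9.56 ± 0.13 (SD, n = 3) in control and 9.68 ± 0.07 (SD, n = 3) in CIH hearts. ASCRP4008132 had 9.49 ± 0.07 and 9.41 ± 0.06 (SD, n = 3 each), and ASCRP4005609 had 9.36 ± 0.10 and 9.43 ± 0.12 (SD, n = 3 each). For these latter 3 the group means were about as far apart as the replicates of a group.

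At the lower edge of the set the levels were close together. The last probes inside were ASCRP4013089, with a mean level of 6.19, and ASCRP4005744, with 6.15, and the first outside were ASCRP4008641 and ASCRP4004683, both with 6.13. For the ratio rule the nearest probe inside was ASCRP4006710, whose highest ratio on the 5 arrays used was -0.997, just above the bound. The nearest left out were ASCRP4006129, with a highest ratio of -1.02, and ASCRP4004008, with -1.08. Of the 164, 137 were among the brightest 200 of every single array, and the lowest rank any of them took on an array was 258. The 164 were chosen by their mean level over these same arrays, so high ranks on each are partly built in. When the levels were taken from the control arrays alone the same rules gave 166 probes, of which 163 were among the 164. From the CIH arrays alone they gave 161, of which 159 were. The background and ratio rules still used arrays of both groups there, so this overlap is no independent support.

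**Figure D1:**
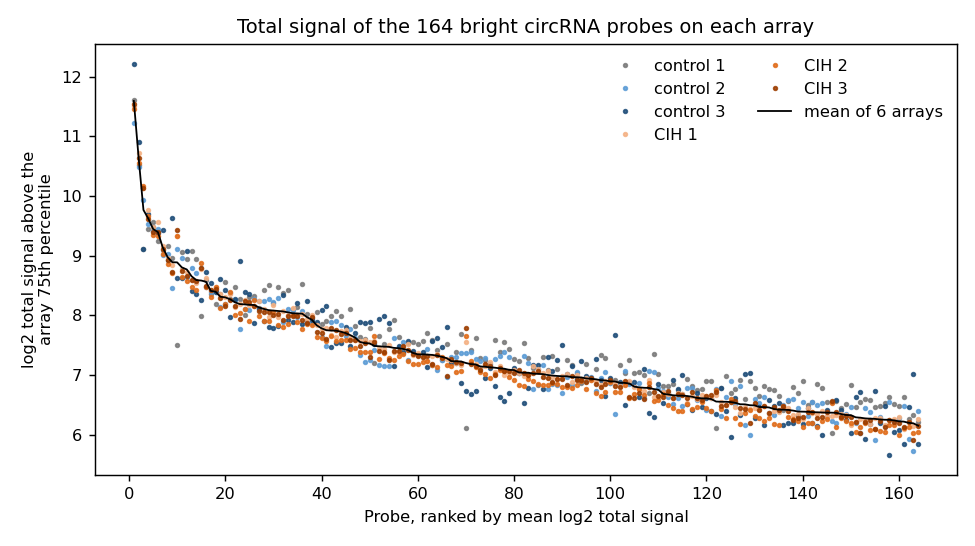
The log2 total signal of each of the 164 probes above the array's 75th percentile (vertical axis) is plotted against the probe's rank by mean level (horizontal axis), with 1 point for each of the 6 arrays and a line for the mean. The mean falls from 11.60 to 6.15, and the grey control 1 points of ASCRP4011502 (member rank 10) and ASCRP4014131 (member rank 70) lie well below the rest.

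The log2 ratio of IP to supernatant signal, set to 0 at the array's median over circRNA probes, describes how a probe's RNA was divided by the antibody relative to the other probes. Since the dye normalization balances the channels on each array, its zero is no absolute m6A level. The median ratio of the 164 probes was 0.11, 0.10 and 0.10 on control 1 to 3 and 0.20, 0.07 and 0.08 on CIH 1 to 3. The set as a whole thus sat near the array median on every array, with CIH 1 the highest. The 5 arrays other than control 1 entered the rule that removed low ratios, so the following is a description of what that rule left.

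On those 5 arrays 79 of the 164 probes were above 0 on every array, 35 were below 0 on every array and 50 had mixed signs. The ratio stayed within 0.5 of 0 on all 5 arrays for 93 of the 164. No probe was above 1 on all 5. The mean over the 5 arrays was above 1 for 4 probes and below -1 for 6. The SD of the ratio across the 164 probes was 0.28 on control 1, against 0.52 and 0.64 on control 2 and 3 and 0.47, 0.49 and 0.44 on CIH 1 to 3. Control 1 thus had the narrowest spread of ratios.

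On control 1, which the ratio rule did not use, the separation was small. Of the 79 probes above 0 on the other arrays, 69 were above 0 on control 1 as well, with a median ratio of 0.12 there against a median 5-array mean of 0.31. Of the 35 probes below 0 on the other arrays, 15 were below 0 on control 1 and 20 above it, with a median of 0.02 against a median 5-array mean of -0.51.

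**Figure D2:**
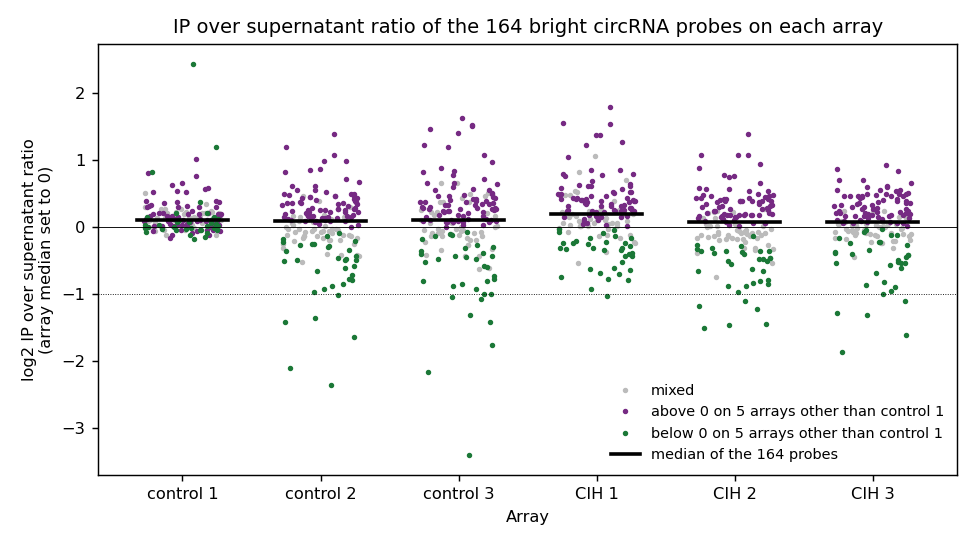
The log2 IP over supernatant ratio of each of the 164 probes (vertical axis, array median set to 0) is shown by array, coloured by the sign of the ratio on the 5 arrays other than control 1, with a bar for the median of the set. The medians lie between 0.07 and 0.20, and the classes that separate on 5 arrays overlap on control 1, where the SD is 0.28.

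The highest ratios were steady in sign over all arrays. ASCRP4006305 had the highest mean ratio over the 6 arrays, with 1.01, 1.39 and 1.52 on control 1 to 3 and 1.79, 1.40 and 0.93 on CIH 1 to 3. Its IP signal ranked 45 among the 164 probes and its supernatant signal 128. The IP signal made up 65.1% to 75.4% of both channels on its 6 arrays, with no separation of the groups. ASCRP4008326, ASCRP4007974 and ASCRP4000060 followed with mean ratios of 1.09, 1.08 and 1.01. ASCRP4000060 was also among the brightest, with a member rank of 9 and a mean level of 8.89.

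Of the 4 probes with the lowest mean ratio over all 6 arrays, 3 were above 0 on control 1 and below 0 on the other 5 arrays. ASCRP4014131, with the lowest 6-array mean, had 0.82, -2.11 and -2.16 on control 1 to 3 and -0.33, -1.51 and -1.87 on CIH 1 to 3. Control 1 was above 0 and the other 5 arrays below it. In the same order ASCRP4006710, the brightest probe, had 2.44, -2.35 and -3.40 in control and -1.04, -1.10 and -0.997 in CIH hearts. By the mean over the 5 arrays other than control 1 it was the lowest, at -1.78 against -1.59 for ASCRP4014131. Its 3 CIH ratios lay close together, whereas its controls spanned both signs, so the CIH values fell inside the control range. ASCRP4009452 had a ratio of 0.07 on control 1 and -1.45 to -0.88 on the other arrays, and ASCRP4014234 had -0.02 on control 1 and -1.45 to -0.78 on the others. In these probes control 1 differed from its own group by more than the groups differed.

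The ratio rule removed 18.0% of the brightest 200 probes. Of the 2896 probes measured throughout but less bright, 129, or 4.45%, met the same low ratio. The share was 9.50% at ranks 201 to 400, 4.50% at ranks 401 to 800, 5.38% at ranks 801 to 1600 and 3.28% at ranks 1601 to 3096. Within the 164 the mean level and the 5-array mean ratio had a Pearson r of -0.17 and a Spearman rho of -0.0012 across probes, both taken from the same arrays. The choice of channel mattered for membership: with brightness taken from the IP signal alone 187 probes were kept, of which 162 were among the 164, and from the supernatant signal alone 156, of which 152 were.

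The first comparison asked whether the division between IP and supernatant differed with CIH. It passed the test (limma, Benjamini-Hochberg adjusted p under 0.05 over 6915 circRNA probes tested) for 0 of the 164 probes and for 0% of all probes tested. The smallest adjusted p among the 164 was 0.999 in limma. At an unadjusted limma p under 0.05 the count was also 0 of 164, against 2.53% of all probes tested. The median log2 change was 0.02 for the 164 and -0.03 for all probes tested, with 90 of the 164 higher and 74 lower in CIH hearts. The change lay within 0.5 for 162 of the 164, and the median standard error was 0.21.

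All 3 CIH arrays were above all controls for 8 of the 164 probes, against 3.27% of all probes tested, and below them for 1, against 2.27%. ASCRP4008768 had the smallest unadjusted p among the higher ones, with ratios of 0.09, 0.22 and 0.22 on control 1 to 3 and 0.40, 0.41 and 0.46 on CIH 1 to 3. The groups did not overlap, but the difference of 0.25 ± 0.16 (SE) had an adjusted p of 0.999 in limma. ASCRP4000260 had the smallest unadjusted p among the lower ones, with -0.05, -0.52 and 0.37 in control and -0.54, -0.74 and -0.45 in CIH hearts. There the change of -0.51 ± 0.29 (SE) rested on controls that spread over both signs.

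Expressed as a share, the median over the 164 probes of IP signal as a percentage of both channels was 50.7% ± 0.45 (SD, n = 3) in control and 51.0% ± 0.55 (SD, n = 3) in CIH hearts as deposited. On single arrays it was 50.2%, 50.8% and 51.1% in the controls and 50.6%, 51.6% and 50.9% with CIH, so the groups overlapped. Scaled to spike-in RNA the shares were 51.9% ± 1.93 and 51.3% ± 1.42 (SD, n = 3 each). The direction between the groups thus depended on the scaling, and the difference was smaller than the SD under both. For the other probes measured throughout, the shares were 50.7% in control and 50.8% in CIH hearts as deposited. Scaled to spike-in RNA they were 52.0% and 51.2%, so these shares were not particular to the 164. Since dye normalization balances the channels, they do not measure how much RNA was precipitated.

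The second comparison asked which probes differed in IP signal, the channel of RNA brought down with the m6A antibody. Of the 164 probes 1 rose and 0 fell (limma, adjusted p under 0.05), against 1.40% called over the 6274 probes tested, all of them higher. At an unadjusted limma p under 0.05 there were 3 higher and 1 lower among the 164, against 10.1% of all tested. The probe that rose was ASCRP4011502, with log2 IP signals of 7.96, 8.12 and 7.48 on control 1 to 3 and 9.15, 8.91 and 8.43 on CIH 1 to 3. Every CIH array was above every control. The difference was 0.98 ± 0.22 (SE) on the log2 scale, or 1.97-fold, with a limma adjusted p of 0.0485, close to the threshold. The ratio rule had kept this probe only through CIH arrays. Its membership and its rise in IP signal thus draw on the same CIH values, and the call is no independent result.

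The call on ASCRP4011502 was lost in limma without control 1 (difference 1.03, adjusted p = 0.103), without CIH 1 (0.82, adjusted p = 0.303) and without CIH 2 (0.94, adjusted p = 0.321), while the direction was the same. With the slide as a block the difference was 1.30 with a limma adjusted p of 0.0765, and within the first slide alone it was 1.30 with 0.0684. Its supernatant signal was 6.83, 9.72 and 9.29 in the controls and 9.49, 9.65 and 10.01 with CIH. Here control 1 was far below the other arrays and control 2 lay within the CIH range, and the supernatant difference of 1.1 over all arrays was 0.21 without control 1.

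ASCRP4014131 came next in IP signal, with 6.42, 6.00 and 5.28 in the controls and 7.36, 6.78 and 6.59 with CIH. The groups did not overlap, and the difference of 1.01 ± 0.27 (SE) had a limma adjusted p of 0.108. It passed in limma with each channel scaled to spike-in RNA (difference 1.1, adjusted p = 0.0230), where 131 of 6274 probes tested passed. With control 1 left out, 34 of 5517 probes tested passed, but ASCRP4011502 did not. The single call among the 164 was then the brightest probe, ASCRP4006710 (difference 1.24, limma adjusted p = 0.0183). Its IP signals were 12.36, 9.65 and 9.68 on control 1 to 3 and 10.85, 10.87 and 10.98 on CIH 1 to 3. The CIH arrays were above control 2 and 3 and below control 1, and over all 6 arrays the difference was 0.34 with a limma adjusted p of 0.817. ASCRP4006710 passed the ratio rule only through CIH 3, at -0.997, against -2.35 and -3.40 on control 2 and 3. ASCRP4004008, with -2.43 and -3.17 on those controls and -1.10, -1.37 and -1.08 with CIH, was left out. ASCRP4014131 was kept only through CIH 1. For both kept probes, as for ASCRP4011502, membership and the rise in IP signal thus draw on the same CIH values.

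Of the lower IP signals ASCRP4001403 had 6.90, 6.94 and 6.60 in the controls against 6.43, 6.26 and 6.56 with CIH. The groups did not overlap, and the difference was -0.39 ± 0.17 (SE) with a limma adjusted p of 0.436. ASCRP4007936 had 7.02, 6.97 and 7.0 against 6.73, 6.67 and 6.77. Its difference of -0.27 ± 0.15 (SE) did not pass either and turned to 0.05 with another background correction that also omits the dye normalization. Across the 164 probes the CIH arrays were all above the controls for 5, against 7.91% of all probes tested, and all below for 11, against 8.91%. Dim probes are among all those tested. Of the 4006 probes above background in this channel on all arrays, 196 had all CIH arrays above all controls and 381 had them all below. The median change was -0.09 for the 164 and -0.13 for all tested, and 24 of the 164 were higher and 140 lower.

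The third comparison took the supernatant signal. It passed the test (limma, adjusted p under 0.05) for 0 of the 164 probes and for 0% of the 5425 tested. At an unadjusted limma p under 0.05 there was 1 higher and 0 lower, against 4.65% of all tested. The smallest adjusted p among the 164 was 0.685 in limma. No probe of the 164 had all CIH arrays above all controls, against 5.20% of all tested, and 20 had them all below, against 8.17%. The median change was -0.19 for the 164 and -0.13 for all tested. All tested probes include dim ones. Over the 3359 probes above background in this channel on all arrays the median change was -0.19 as well. Of these, 80 had all CIH arrays above all controls and 351 had them all below.

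The probe with the smallest p among the higher supernatant signals was ASCRP4004366, with 9.07, 10.48 and 9.50 in the controls and 10.47, 10.61 and 10.63 with CIH. Control 2 was as high as the lowest CIH array, and the other controls were lower. The difference of 0.88 ± 0.37 (SE) had an adjusted p of 0.685 in limma, and without control 1 it was 0.58. Of the lower ones ASCRP4012470 had 7.28, 6.78 and 6.88 in the controls and 6.75, 6.42 and 6.43 with CIH, a difference of -0.45 ± 0.20 (SE). ASCRP4004226 had 7.36, 6.79 and 6.81 against 6.65, 6.44 and 6.70, a difference of -0.39 ± 0.21 (SE). In both the groups did not overlap and control 1 was the highest array, and without it the differences were -0.30 and -0.20.

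The fourth comparison took the total signal, the measure by which the probes had been ranked over all arrays without regard to group. It passed the test (limma, adjusted p under 0.05) for 0 of the 164 probes and for 0% of the 6915 tested, with a smallest adjusted p of 0.300 among the 164. At an unadjusted limma p under 0.05 there were 3 higher and 0 lower, against 9.70% of all tested. The CIH arrays were all above the controls for 5 of the 164, against 8.46%, and all below for 11, against 8.89%. Of the 4400 probes above background in either channel on all arrays, 250 had all CIH arrays above all controls and 411 had them all below. In whole hearts fewer cells of a type and less RNA per cell cannot be told apart.

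Changes of total signal were small over most of the set. They lay within 0.5 on the log2 scale for 161 of the 164, with 3 at least 0.5 higher and 0 at least 0.5 lower, and the median standard error was 0.17. The median change was -0.14 for the 164 and -0.13 for all probes tested, a difference of -0.01. The zero of these changes depends on the scaling. Scaled to the array's median rather than its 75th percentile, the median change was -0.38 for the 164 and -0.37 for all tested, and scaled to spike-in RNA it was -0.0038 and 0.0010. The 164 stayed close to the whole under each, while the balance of 27 higher and 137 lower became 5 and 159 with the median and 79 and 85 with spike-in RNA.

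Of the 3 with the larger differences, ASCRP4011502 had levels of 7.51, 9.12 and 8.62 on control 1 to 3 and 9.33, 9.33 and 9.42 on CIH 1 to 3. All CIH arrays were above all controls, with control 1 far below. The difference was 0.94 ± 0.34 (SE, limma adjusted p = 0.391), and 0.49 without control 1. ASCRP4014131 had 6.11, 7.37 and 6.73 against 7.56, 7.66 and 7.78. It too separated the groups with control 1 lowest, with a difference of 0.93 ± 0.28 (SE, limma adjusted p = 0.300) that was 0.61 without control 1. Both probes had been kept by the ratio rule through CIH arrays. For ASCRP4004366, whose levels are given above, the difference was 0.76 ± 0.24 (SE), or 1.69-fold, with a limma adjusted p of 0.314.

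The difference of ASCRP4004366 was 0.62 without control 1, and 0.74 within the first slide. It passed in limma without control 2 (1.03, adjusted p = 0.0337) and with another background correction (0.72, adjusted p = 0.000551), as ASCRP4014131 did without control 2 (1.25, adjusted p = 0.0398). For these probes control 2 was the highest of the controls. With that background correction the limma fit gave a probe's own spread almost no weight, so the small p overstates the certainty. On the falling side ASCRP4001403 had a total difference of -0.36 ± 0.19 (SE) and ASCRP4004226 of -0.31 ± 0.17 (SE). Neither passed the test, and without control 1 they were -0.25 and -0.17.

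**Figure D3:**
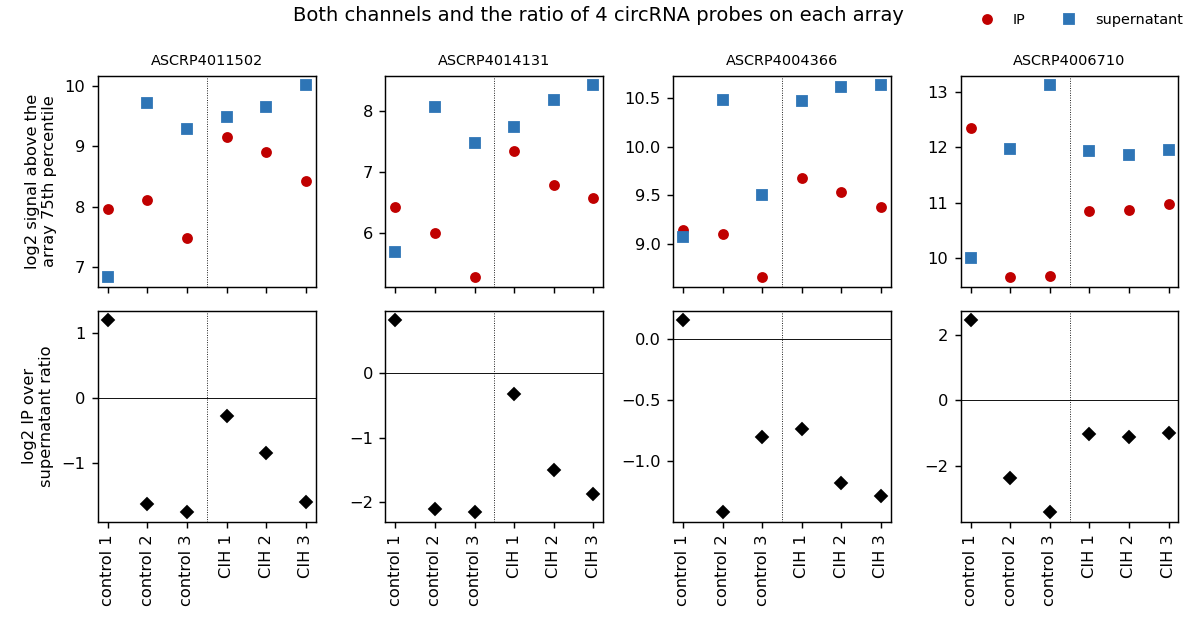
For 4 probes the log2 IP and supernatant signals above the array's 75th percentile (upper panels) and the log2 IP over supernatant ratio (lower panels) are plotted for each of the 6 arrays, with controls left of the dotted line and an own vertical scale in each panel. The IP points of ASCRP4011502 are 7.48 to 8.12 in control and 8.43 to 9.15 in CIH hearts, and on control 1 the IP of each probe lies above its supernatant, unlike on the other arrays.

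The 3 probes with the largest differences in total signal all had low ratios. Grouped by the sign of the ratio on the 5 arrays, the median change of total signal was -0.20 for the 79 probes above 0, of which 0 were higher in CIH hearts. It was -0.10 for the 50 with mixed signs, of which 10 were higher, and -0.01 for the 35 below 0, of which 17 were higher. Without control 1 the medians were -0.09, -0.06 and -0.01, with 10, 13 and 15 higher. The order of the classes was the same, and the gap between the outer classes was less than it was with control 1. The classes and the changes share the same arrays, so this is a description with no test, and the part of control 1 in it beyond these values was not tested.

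The classes had the same order in each channel as in the total signal, with and without control 1. In the supernatant signal the median change was -0.26 for the probes above 0 and 0.02 for those below 0, and without control 1 it was -0.14 and -0.10. In the IP signal it was -0.13 and -0.03, and without control 1 -0.07 and 0.07. In the IP signal 12 of the 35 probes below 0 were higher in CIH hearts with all arrays and 25 of the 35 without control 1. In the supernatant signal the count for the same probes went the other way, from 19 to 12 of the 35.

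**Figure D4:**
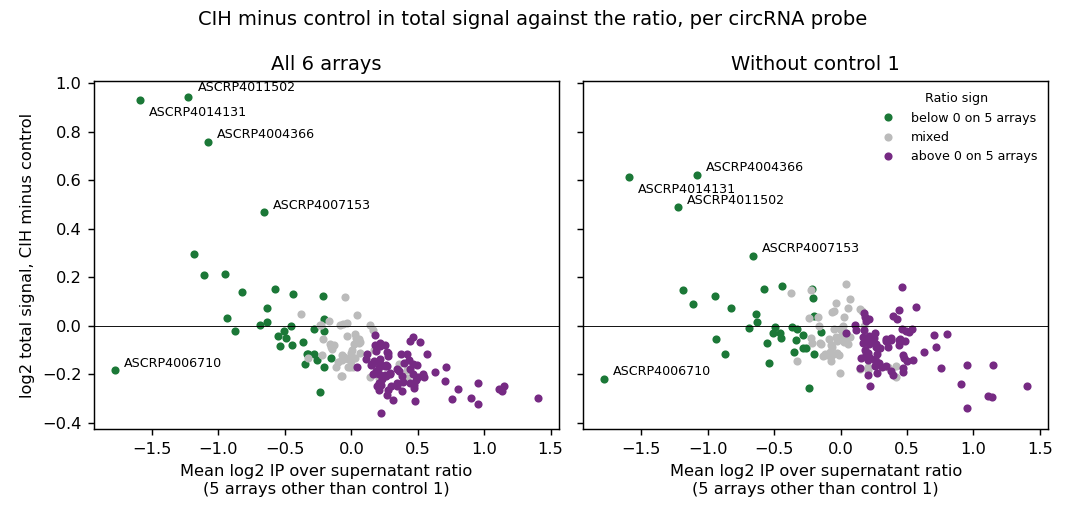
The CIH minus control difference in log2 total signal (vertical axis) is plotted for each of the 164 probes against its mean log2 ratio on the 5 arrays other than control 1 (horizontal axis), with all arrays on the left and without control 1 on the right. ASCRP4011502, ASCRP4014131 and ASCRP4004366 stand highest, at 0.94, 0.93 and 0.76 on the left and at 0.49, 0.61 and 0.62 on the right.

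The replicates of the control group lay further apart than those of the CIH group. The median SD of the level within a group was 0.23 over the control arrays and 0.08 over the CIH arrays, and it was smaller in CIH for 147 of the 164 probes. Over control 2 and 3, without control 1, the median SD was 0.24, from 2 arrays rather than 3. The median absolute difference in level between a pair of arrays was 0.22, 0.27 and 0.34 for the 3 control pairs and 0.13, 0.05 and 0.10 for the 3 CIH pairs. The closest CIH pair, CIH 1 and CIH 3, lay on different slides. For the other probes measured throughout, the median SD of the level was 0.11 within CIH, 0.29 within control and 0.27 over control 2 and 3.

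In the ratio the spread was more alike. The median SD was 0.18 over the control arrays and 0.14 over the CIH arrays, and it was smaller in CIH for 99 of the 164 probes. Over control 2 and 3 it was 0.10, but an SD over 2 arrays is not on a par with one over 3. The median absolute difference in ratio between a pair of arrays was 0.23, 0.27 and 0.14 for the 3 control pairs. For the 3 CIH pairs it was 0.19, 0.21 and 0.11. The pair of control 2 and 3 had the 0.14. With 3 arrays a group these spreads are a description, and no test of them was made.

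The spread over all 6 arrays was largest for ASCRP4011502 and ASCRP4014131, with SDs of the level of 0.74 and 0.65. It was smallest for ASCRP4005431, whose levels were 6.94, 6.96 and 6.94 on control 1 to 3 and 6.91, 6.91 and 6.96 on CIH 1 to 3, and next smallest for ASCRP4001536, with 6.87, 6.86 and 6.95 against 6.89, 6.89 and 6.91. Steady total signal did not mean steady division: the ratio of ASCRP4005431 was 0.12 on control 1 and -0.78 to -0.39 on the other arrays.

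**Figure D5:**
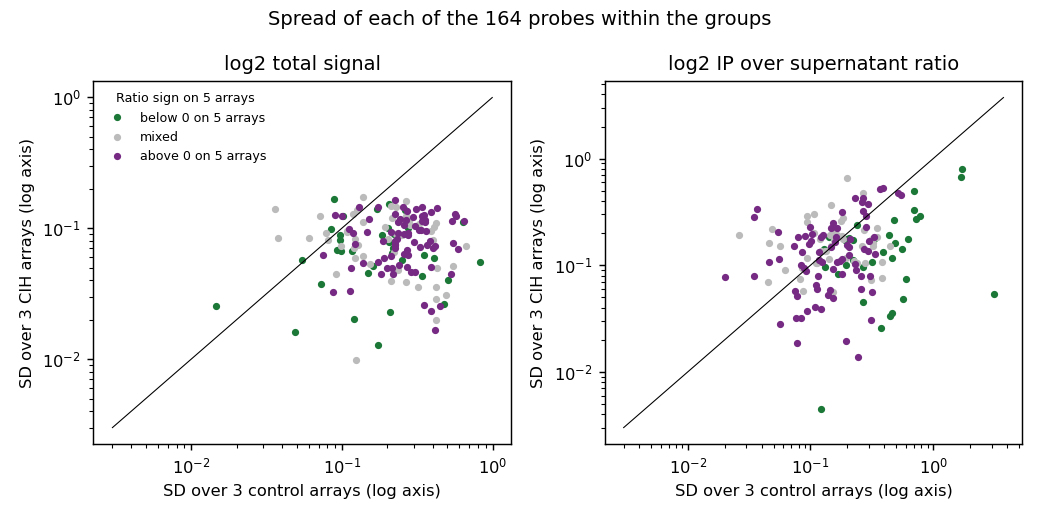
For each of the 164 probes the SD over the 3 CIH arrays (vertical axis) is plotted against the SD over the 3 control arrays (horizontal axis), for the log2 total signal on the left and the log2 ratio on the right, on log axes with the line of equality. In the level 147 points lie below the line, and in the ratio 99.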

How the data were processed

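The deposited data are scanner outputs, 1 per array, with both colours. Per the file headers and the submitters' processing notes, Agilent Feature Extraction 11.0.1.1 made the processed signals, which are intensity values background-subtracted and dye-normalized (linear and lowess) per array, and the deposited log10 ratio of Cy5 over Cy3. The log2 ratio was recomputed from the processed signals and centred on the array's median. IP, supernatant and total signal were set against the array's 75th percentile over circRNA probes. Outlier spots (35 over 6 arrays) were left out. Probes well above background on at least 3 of 6 arrays were tested with limma 3.58.1 in R 4.3.3 (empirical Bayes with trend, two-sided, no covariate), adjusted over all probes tested, and tried on simulated data. Probes were named by a rule: the brightest, those at the edges of the selection, extremes of ratio and of SD, and per comparison up to 2 with the smallest p in each direction. The probes, lists and naming rule were chosen with earlier results of these data known. Heart circRNA host genes (15) and m6A machinery (14) were listed, but 0 of them have a named probe. Alternatives covered background, scaling, filters, weights, slide, replicate block and leaving out each array, and 2 of them, the first slide alone and signals before dye normalization, were chosen after seeing the data.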

Additional observations from a re-analysis of the deposited data

How the results depend on the processing

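With 3 arrays a group, differences near the median standard error cannot be resolved, and much larger ones can fail to pass as well. The IP difference of ASCRP4014131, 1.01 ± 0.27 (SE), had a limma adjusted p of 0.108. The fold of bright probes is not limited by background. For the ratio and the supernatant signal, 0 of the 164 probes passed under each of the 19 alternatives. For the IP signal the count of 1 became 0 with median scaling (47 of all 6274 probes tested called), quantile normalization (40) and no moderation (0). It was also 0 with the slide as a block (7 of 6274) and no dye normalization (68 of 6274). So it was with probes above background on all arrays (31 of 4006) and outlier spots kept (69 of 6276). No count is given for the first slide alone, which holds 1 CIH array. The count became 2 with spike-in scaling (131 of 6274) and with no filter on dim probes (291 of 14234). With no filter the SE of ASCRP4011502 was 0.24 against 0.22 in the main fit, yet its limma p was 8.2e-05 against 0.00067. That fit gave a probe's own spread little weight, so its calls overstate the certainty. The count was 0 to 1 when each array was left out in turn. With the replicate block it was 0 as well, with a limma adjusted p of 0.0738 for ASCRP4011502. Over all probes tested, the deviations of samples with the same number correlated at -0.24 to 0.02 in the IP signal, -0.04 to 0.24 in the ratio, -0.006 to 0.27 in the supernatant signal and -0.20 to 0.14 in the total signal. In no measure were all 3 numbers above 0.1, so the numbers were not taken as pairs. Over the 164 probes alone they were -0.63 to 0.02, -0.03 to 0.44, 0.38 to 0.55 and -0.29 to 0.18, so in the supernatant signal of these probes the same numbers did deviate together. With the replicate block 0 of the 164 passed in that signal too. For the total signal the count of 0 became 3 with normexp (ASCRP4004366 and ASCRP4011502 higher, ASCRP4006710 lower), against 29 of all 6915 probes tested. It was 0 to 2 when each array was left out, with the 2 without control 2, against 124 of 6016 tested. With median scaling 81 of 6915 were called, and 0 of the 164. With normexp the limma fit gave a probe's own spread almost no weight. The SE of ASCRP4006710 was 0.032 there, against 0.27 in the main fit, so these calls overstate the certainty. The median change of the 164 in the ratio was 0.10 with the slide as a block and on the first slide alone, -0.078 without dye normalization, and -0.059 to 0.059 when each array was left out. In the IP signal it was 0.074 with normexp, -0.37 with median scaling, -0.0055 with spike-in scaling and -0.17 with array weights. In the supernatant signal it was -0.52 with median scaling and 0.00032 with spike-in scaling, and in the total signal -0.38 and -0.0038. The IP change of ASCRP4007936 turned to 0.046 with normexp. Taking 100 or 400 in place of 200 probes gave 79 and 345. Apart from what the alternatives change by their construction, the cause of these shifts was not tested.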
